A study of Mus musculus with 77 samples.

Results

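The maturation of the normal murine retina between P17 and P28 (postnatal days 17 and 28) was followed in the control mice of an oxygen-induced retinopathy (OIR) experiment. The members were chosen by label alone, as all normoxia arrays of these days, which gave 26 of the 77 arrays of the series: 12 mice on P17 and 14 on P28. The mice were C57BL/6. Their litters stayed at 21% oxygen throughout, and were kept in chambers from day 7 to day 12. The OIR litters were kept in such chambers at 75% oxygen over the same days and then came back to room air. RNA from both retinas of a mouse was pooled and hybridized on a 2-color array beside a commercial universal mouse reference RNA. Each array was therefore 1 mouse, and the litter of a mouse was not analysed here, as it was not given in the labels.

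Between these days the retina has all its cell types, the eyes are already open, and the tissue passes from a juvenile to a nearly adult state. Photoreceptors, which carry most of the retinal energy demand, feed on glucose through both aerobic glycolysis and mitochondrial respiration. Neurons are known to lose tubulin isotypes and growth proteins of the outgrowing neurite at this stage, and the vessels, which have just completed their layers, gain a quiescent endothelium covered by pericytes. In whole-retina RNA, fewer cells of a type and less RNA per cell cannot be told apart.

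The sample labels give Cy5 as the dye of the retina, but 3 genes of the rod cascade, *Gnat1*, *Pde6b* and *Sag*, gave more Cy3 than Cy5 signal on each array, by at least 3.37 on the log2 scale. Cy3 was therefore read as the retina, against the labels, and every signed value below is the log2 of retina over reference, or the P28 minus P17 difference of it. A value compares 1 gene with the reference pool, so levels of different genes cannot be ranked. The gene of a probe came from its transcript accession, and where a gene had several probes the one with the brightest retina signal was used.

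Brightness had to be settled before the comparison. The mean net signal of the retina channel ran from 42.4 to 520.1 on P17 (median 126.5) and from 132.8 to 1209.8 on P28 (median 871.5), whereas the reference channel ran from 42.9 to 317.1 and from 155.02 to 271.2. The arrays fell into a dim set (9 on P17, 5 on P28, at most 177.9) and a bright set (3 on P17, 9 on P28, at least 473.6). Between 13765 and 27910 probes were well above background on P17 and between 19938 and 34306 on P28. Within the bright set the ages still differed, with at most 520.1 on P17 and at least 822.3 on P28. On the third of 4 scan days, 3 arrays of P17 (120.4 to 168.9) and 5 of P28 (132.8 to 147) were alike in brightness. All arrays of the bright set were scanned on the fourth day.

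**Figure D1:**
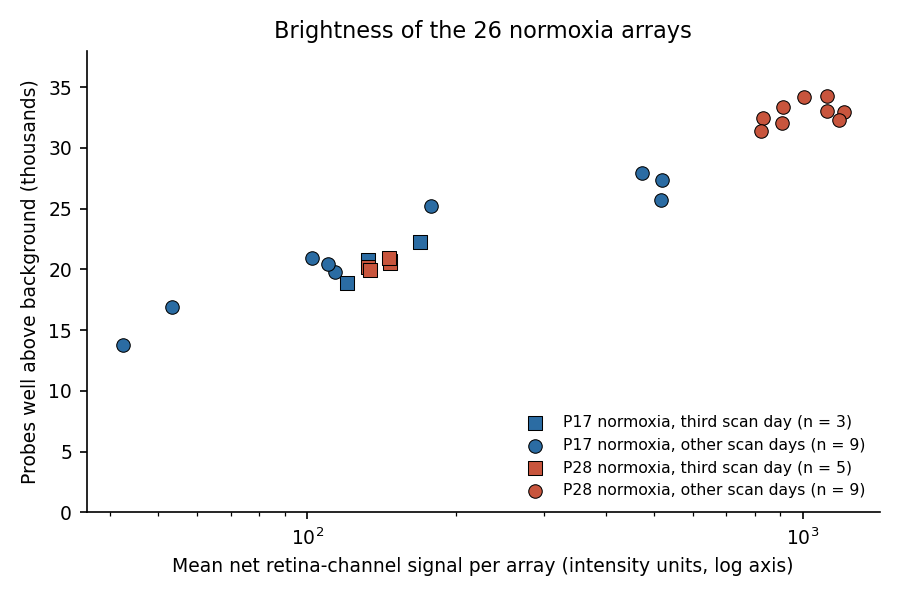
Mean net retina-channel signal of each array (x, intensity units, log axis) against the number of probes well above background (y), for the 12 P17 arrays (blue) and 14 P28 arrays (red), with squares for the third scan day. The 9 bright P28 arrays lie to the right of every P17 array, and the squares of both ages lie together.

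Each probe was therefore read in 3 ways: as the offset ratio (both channels corrected with an added offset of 50, loess within each array), as the ratio deposited by the authors, and as the retina channel alone. With the offset ratio, limma called 6678 of 55681 probes (12%) at an adjusted p below 0.05, 4026 higher and 2652 lower on P28. In all 3 readings and in 1 direction, 3806 probes (6.84%) were called, 2769 higher and 1037 lower. Counted by gene, 1617 of 21154 genes (7.64%) were higher and 580 (2.74%) lower. Bright and dim arrays differed at 23938 probes. A call was said to hold with brightness where all 3 readings also called it with the brightness set as a block, and where the arrays of the third scan day moved the same way. By this rule, which was set after the signals had been seen, 1152 genes (5.45%) were higher and 403 (1.91%) lower. With the number of probes above background as a covariate in place of the block, 15 of the 69 named genes that held lost their call in the offset ratio. These were *Ulk3*, *Zfp457*, *Capg*, *Anpep*, *Cd68*, *Col3a1*, *Hmga2*, *Plk1* and *Rrm2* among the falls and *Arntl*, *Gfap*, *Hbb-b1*, *Krt12*, *Sdha* and *Uqcrfs1* among the rises. The median change of all rises and falls that held was 0.42 and −0.44 over all arrays but 0.24 and −0.25 on the third scan day. Sizes are therefore given for both in many genes, and a size given without a scan day is that over all arrays. In the reference channel alone, which held the same RNA on every array, limma called 17 probes, with 5053 at an unadjusted p below 0.05. Loess sets the bulk of the probes of an array to a difference near 0, so every change is relative to the other probes. Centring each array on its median instead moved the median change of the probes above background from 0.02 to 1.13, and on the third scan day to −0.17, and with it the sign of 33 named genes, all of them below 0 in the offset ratio, turned over all arrays.

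On the third scan day the groups did not overlap in 1767 genes that were higher on P28 (8.35% of all genes) and in 1020 that were lower (4.82%). They did not overlap in 685 of the 1152 rises and 186 of the 403 falls that held. Moving the same way on that day was part of the rule for holding, so these counts were raised by the choice and are no independent support. Over all 26 arrays the groups did not overlap in 58 genes that were higher (0.274%) and 24 that were lower (0.113%). Slide was also tested, since 6 of the 10 slides carried both ages (8 arrays of P17 and 11 of P28), and the number of these slides that share the direction is given for the main genes.

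The largest rise was that of *Sgk1*, a serine-threonine kinase known as a target of glucocorticoid and mineralocorticoid receptors that acts on ion channels and transporters. Its level lay between −1.71 and −0.91 on P17 (median −1.42) and between −0.06 and 0.61 on P28 (median 0.26). No P17 mouse reached any P28 mouse. The difference was 1.66 ± 0.10 (SE), or 3.16-fold, with an adjusted p of 7.6e-11 in limma. *Sgk1* was higher on P28 on 6 of 6 slides, by 1.501 to 2.24, and by 1.82 on the third scan day. In the 12 control mice of P12 its level was lower still, with a median of −2.31 (range −3.17 to −1.65).

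In the glucocorticoid and metallothionein list, of the 12 members 4 fell and 1, *Sgk1*, rose, and all 5 calls held with brightness, with a list median of −0.29 against 0.0029 over all genes. Of all genes 2.74% fell, and 1.91% fell and held. *Fkbp5*, a co-chaperone that dampens the glucocorticoid receptor, ranged from −0.83 to −0.07 on P17 (median −0.49) and from −1.09 to −0.72 on P28 (median −0.84). The ranges overlapped over all arrays but not on the third scan day, and the difference was −0.45 ± 0.07 (adjusted p = 9.4e-05), and −0.47 on the third scan day. *Angptl4*, a secreted inhibitor of lipoprotein lipase, fell by 0.91 (adjusted p = 0.0013), yet by 0.28 on the third scan day. *Tsc22d3*, the glucocorticoid-induced leucine zipper, fell by 0.37 over all arrays but by 0.03 on the third scan day, where the groups overlapped. *Zbtb16*, a zinc finger repressor, fell by 0.32 and by 0.22.

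**Figure D2:**
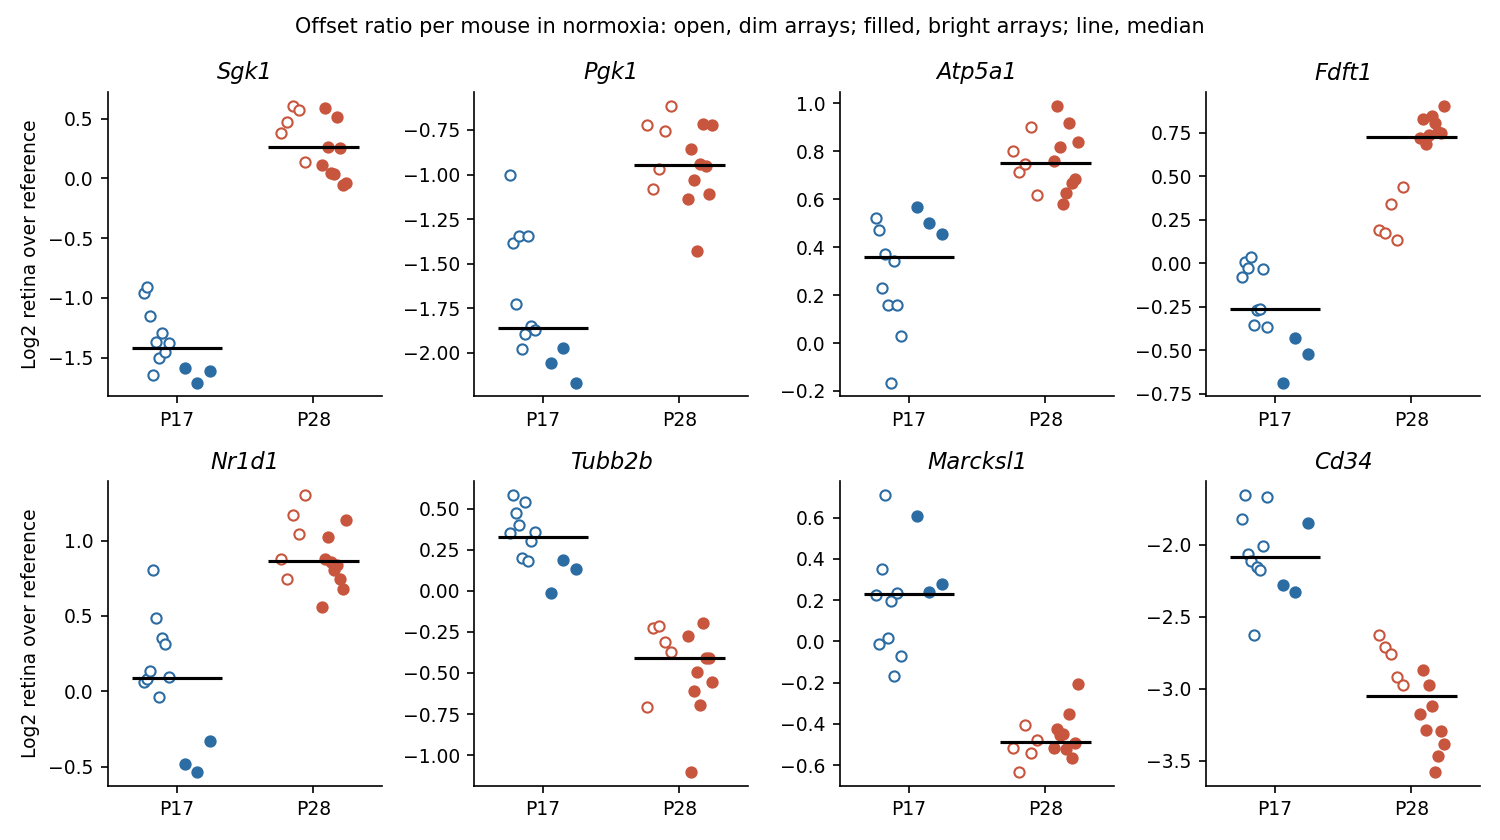
Offset ratio (y, log2 retina over reference) of 8 genes in each normoxia mouse of P17 (blue, n = 12) and P28 (red, n = 14), with open points for dim arrays, filled points for bright arrays and a line at the median. For Sgk1, Atp5a1, Fdft1, Tubb2b, Marcksl1 and Cd34 no P17 mouse overlaps with a P28 mouse, while the ranges overlap for Pgk1 and Nr1d1.

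Of 18 glycolysis genes 5 were called higher in all 3 readings and none lower, and 4 rises held with brightness. Over all genes 7.64% were called higher, and 5.45% were higher and held. All 18 members were well above background on every array, against 8266 of the 21154 genes. The list median was 0.05 over all arrays and 0.35 on the third scan day, beside 0.0029 and 0.0049 over all genes. *Pgk1*, phosphoglycerate kinase, had levels from −2.17 to −1.005 on P17 (median −1.86) and from −1.43 to −0.61 on P28 (median −0.95). Of the P17 mice 4 lay within the P28 range. Its difference was 0.78 ± 0.11 (adjusted p = 3.63e-05), and 0.91 on the third scan day, with a rise on 6 of 6 slides. On P12 the median of *Pgk1* had been −2.60.

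*Tpi1*, triosephosphate isomerase, ranged from −1.77 to −0.28 on P17 (median −1.22) and from −0.84 to 0.18 on P28 (median −0.42). Its rise was 0.72 ± 0.16 (adjusted p = 0.00259) over all arrays and 1.15 on the third scan day, and both of its probes were called. *Pfkp*, the platelet isoform of phosphofructokinase, went from a median of 0.54 (0.10 to 0.81) to 1.32 (0.90 to 1.58) with no overlap. It rose by 0.78 ± 0.09 (adjusted p = 2.4e-06), but by 0.30 on the third scan day. The second, dimmer probe of *Pfkp* differed by −0.13 and was not called. *Hk2*, hexokinase 2, rose by 0.78 ± 0.22 (adjusted p = 0.0194), but was not called in all 3 readings with the brightness set as a block. *Pgam1*, phosphoglycerate mutase, which was named after its values were seen, rose by 0.40 (adjusted p = 0.00837), and by 0.66 on the third scan day.

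Of 26 respiratory chain genes, all well above background on all 26 arrays, 7 were called higher and none lower, and 6 held with brightness. The shares of all genes were 7.64% higher and 5.45% held, but only 8266 of the 21154 genes were well above background on every array. The offset ratio alone called 7 higher and 4 lower, and the list median was 0.0044. *Atp5a1*, the alpha subunit of ATP synthase, was named after its values were seen. It went from a median of 0.36 (−0.17 to 0.57) to 0.75 (0.58 to 0.99), and the groups did not overlap. It rose by 0.46 ± 0.07 (adjusted p = 5.8e-05), with 0.64 on the third scan day and a rise on 6 of 6 slides. Also held were *Cyc1*, *Uqcrfs1* and, named after its values were seen, *Uqcrc1* of complex III, higher by 0.51, 0.52 and 0.37, and *Sdha* of complex II, higher by 0.50 but by 0.25 on the third scan day. *Idh3b*, a subunit of the citrate cycle enzyme isocitrate dehydrogenase, was also among the 12 largest rises of all genes, at 1.15 ± 0.16.

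Of 22 cholesterol synthesis genes 6 were higher and none lower, all 6 held with brightness, and the list median was 0.12 over all arrays and 0.21 on the third scan day. Among all genes 7.64% were higher, and 5.45% were higher and held. *Fdft1*, squalene synthase, the first enzyme committed to sterols, ranged from −0.69 to 0.04 on P17 (median −0.26) and from 0.14 to 0.90 on P28 (median 0.73). The groups did not overlap, and the difference was 0.84 ± 0.10 (adjusted p = 4.41e-06), or 1.79-fold, with 0.55 on the third scan day. A second probe of *Fdft1*, which was dimmer, differed by −0.12 and was not called. *Msmo1*, a sterol demethylating oxidase, rose from a median of −0.99 (−1.27 to −0.52) to −0.40 (−1.02 to −0.22), by 0.53 ± 0.08 (adjusted p = 5.91e-05). *Fdps*, farnesyl diphosphate synthase, rose by 0.39 (adjusted p = 0.0021) over all arrays and by 0.64 on the third scan day. *Lss*, lanosterol synthase, rose by 0.41, with an adjusted p of 0.0435 that became 0.0626 without the 2 arrays of highest lens signal described below. The remaining calls, named after their values were seen, were *Insig1*, the sterol-regulated retention protein of the pathway, higher by 0.21, and *Hsd17b7*, higher by 0.18.

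Among 18 genes of the circadian clock 4 were higher, none was lower, and all 4 held with brightness, although the list median of 0.03 lay near that of all genes. The shares of all genes were 7.64% higher and 5.45% higher and held. *Nr1d1*, which encodes the repressor REV-ERB alpha, ranged from −0.53 to 0.80 on P17 (median 0.09) and from 0.56 to 1.30 on P28 (median 0.87). One P17 mouse lay within the P28 range. The difference was 0.83 ± 0.12 (adjusted p = 3.46e-05), and 0.76 on the third scan day. *Arntl*, the activator BMAL1, whose transcription *Nr1d1* is known to repress, went from a median of 1.20 (0.46 to 1.95) to 2.18 (1.34 to 2.51). It rose by 0.71 ± 0.17 (adjusted p = 0.00708) but by 0.26 on the third scan day, where the groups did not overlap. *Nfil3*, a repressor of the clock output, rose by 0.45 (adjusted p = 0.0134), and by 0.57 on the third scan day. The hour of tissue collection was not given in the sources used here.

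The promoters of *Arntl* and *Nfil3* are shown because REV-ERB receptors read the letters AGGTCA. The windows run from 250 bases before to 50 after a transcript start (RefSeq, GRCm38.p6), and capitals mark AGGTCA or its reverse complement, searched on both strands. The string occurs in 5340 of 32851 promoter windows (16.3%). The *Arntl* window lies on the plus strand at chr7:113207261-113207560, and the window of another *Arntl* start nearby does not hold the string.
Arntl: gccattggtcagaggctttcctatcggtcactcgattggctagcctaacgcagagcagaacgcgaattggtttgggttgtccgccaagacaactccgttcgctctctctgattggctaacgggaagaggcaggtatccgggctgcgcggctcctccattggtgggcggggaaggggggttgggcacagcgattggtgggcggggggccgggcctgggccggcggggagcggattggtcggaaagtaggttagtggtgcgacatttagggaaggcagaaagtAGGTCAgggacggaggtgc
The *Nfil3* window lies on the minus strand at chr13:52980990-52981289.
Nfil3: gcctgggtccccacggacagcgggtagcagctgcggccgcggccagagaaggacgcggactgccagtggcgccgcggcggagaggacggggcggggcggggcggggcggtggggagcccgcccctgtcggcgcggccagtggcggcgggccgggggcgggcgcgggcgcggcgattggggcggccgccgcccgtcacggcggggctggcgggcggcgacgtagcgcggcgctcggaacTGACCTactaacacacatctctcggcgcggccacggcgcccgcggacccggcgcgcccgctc
Each window held 1 match, and that of *Nr1d1* held none. A match of these letters is a description and not a binding site.

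Of 24 genes of neurite growth and the cytoskeleton 3 fell and 1 rose in all 3 readings, and the 3 falls held with brightness, with a list median of −0.06 (−0.10 on the third scan day). Over all genes 2.74% fell, and 1.91% fell and held. The rise, of the alpha-tubulin *Tuba1a* by 0.35, did not hold. Of the 24 members 20 were well above background on all arrays, against 8266 of all 21154 genes. Among 13373 probes well above background on all arrays and tested alone, 1379 fell in all 3 readings. *Tubb2b*, a beta-tubulin of young neurons, ranged from −0.01 to 0.58 on P17 (median 0.33) and from −1.10 to −0.19 on P28 (median −0.41). No mice overlapped. It fell by 0.78 ± 0.08 (adjusted p = 1.72e-06), by 0.67 on the third scan day and on 6 of 6 slides, and both of its probes were called. On P12 its level had been far higher, with a median of 2.32 (1.35 to 2.85).

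*Marcksl1*, an actin-binding substrate of protein kinase C, ranged from −0.17 to 0.71 on P17 (median 0.23) and from −0.63 to −0.21 on P28 (median −0.49). Again the groups did not overlap, with a fall of 0.69 ± 0.07 (adjusted p = 1.72e-06) and of 0.53 on the third scan day. *Dpysl3*, a collapsin response mediator of growth cones, fell by 0.62 ± 0.09 (adjusted p = 7.32e-05), from a median of 2.77 to 1.99 and after 3.12 on P12. Its second probe differed by −0.01 and was not called. *Rbfox2*, a splicing factor, was among the 12 largest falls of all genes and had no overlap, with 0.22 to 1.68 on P17 (median 0.72) and −1.19 to 0.16 on P28 (median −0.70). The change of −1.28 ± 0.17 was −0.52 on the third scan day.

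Of 16 endothelial genes 5 were lower and none higher, and all 5 held with brightness. The list median of the offset ratio, −0.02 over all arrays and −0.05 on the third scan day, was close to that of all genes. It was −0.154 with the brightness set as a block, −0.464 in the deposited ratio and −0.24 in the retina channel alone. Over all genes these were −0.0035, 0.021 and 0.0053. The shares of all genes were 2.74% lower and 1.91% lower and held. *Cd34*, a sialomucin of endothelial and progenitor cells, ranged from −2.62 to −1.66 on P17 (median −2.09) and from −3.58 to −2.63 on P28 (median −3.05). The lowest P17 mouse lay just above the highest P28 mouse. The fall was 1.02 ± 0.11 (adjusted p = 1.72e-06), or 2.03-fold, and 0.48 on the third scan day, and *Cd34* was lower on 6 of 6 slides. Its second probe differed by −0.10 and was not called.

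*Cd93*, an adhesion receptor of endothelial cells, went from a median of 1.40 (0.72 to 2.07) to 0.62 (0.27 to 1.05). It fell by 0.77 ± 0.12 (adjusted p = 0.000146), and by 0.38 on the third scan day. *Ramp2*, the partner of the adrenomedullin receptor, *Cdh5*, the VE-cadherin of the junctions, and *Egfl7*, a matrix factor of vessels that was named after its values were seen, fell by 0.39, 0.32 and 0.23. All 3 were lower on 6 of 6 slides, but the groups overlapped. On the third scan day *Ramp2* fell by 0.31 and *Cdh5* by 0.06. *Pdgfb*, the platelet-derived growth factor that recruits pericytes, was the only 1 of 11 tip cell genes called in all 3 readings, and it fell by 0.52 ± 0.10 (adjusted p = 0.00094), with no overlap on the third scan day. Its receptor in pericytes, *Pdgfrb*, fell by 0.40 ± 0.07 (adjusted p = 0.0002), and by 0.10 on the third scan day. Of 13 mural cell genes 3 were lower and 2 held, the other being *Anpep*, a membrane peptidase, at −0.68 and at −0.12 on the third scan day. *Acta2*, smooth muscle actin, at −0.93, did not hold. None of the 10 transporters of the blood-retina barrier was called in all 3 readings (2 higher and 3 lower at an unadjusted p below 0.05 in limma, and 2 higher and 2 lower called in the retina channel alone).

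Of 26 collagen and basement membrane genes 7 fell, 4 held, and the list median was −0.49 over all arrays but −0.12 on the third scan day. Among all genes 2.74% fell, and 1.91% fell and held. *Serpinh1*, the collagen chaperone HSP47, ranged from −2.80 to −1.42 on P17 (median −2.48) and from −4.48 to −2.70 on P28 (median −3.91). Its fall of 1.43 ± 0.20 (adjusted p = 3.43e-05) was 0.38 on the third scan day, where the groups overlapped. *Col3a1* fell by 1.08 over all arrays and by 0.11 on the third scan day. Named after their values were seen, *Fn1*, fibronectin, fell by 0.64 and 0.34, and *Lamb1*, a laminin chain, by 0.42 and 0.12. *Col1a2*, at −0.78, did not hold. *Col1a1*, at −1.42, no longer passed all 3 readings once the brightness set was a block.

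**Figure D3:**
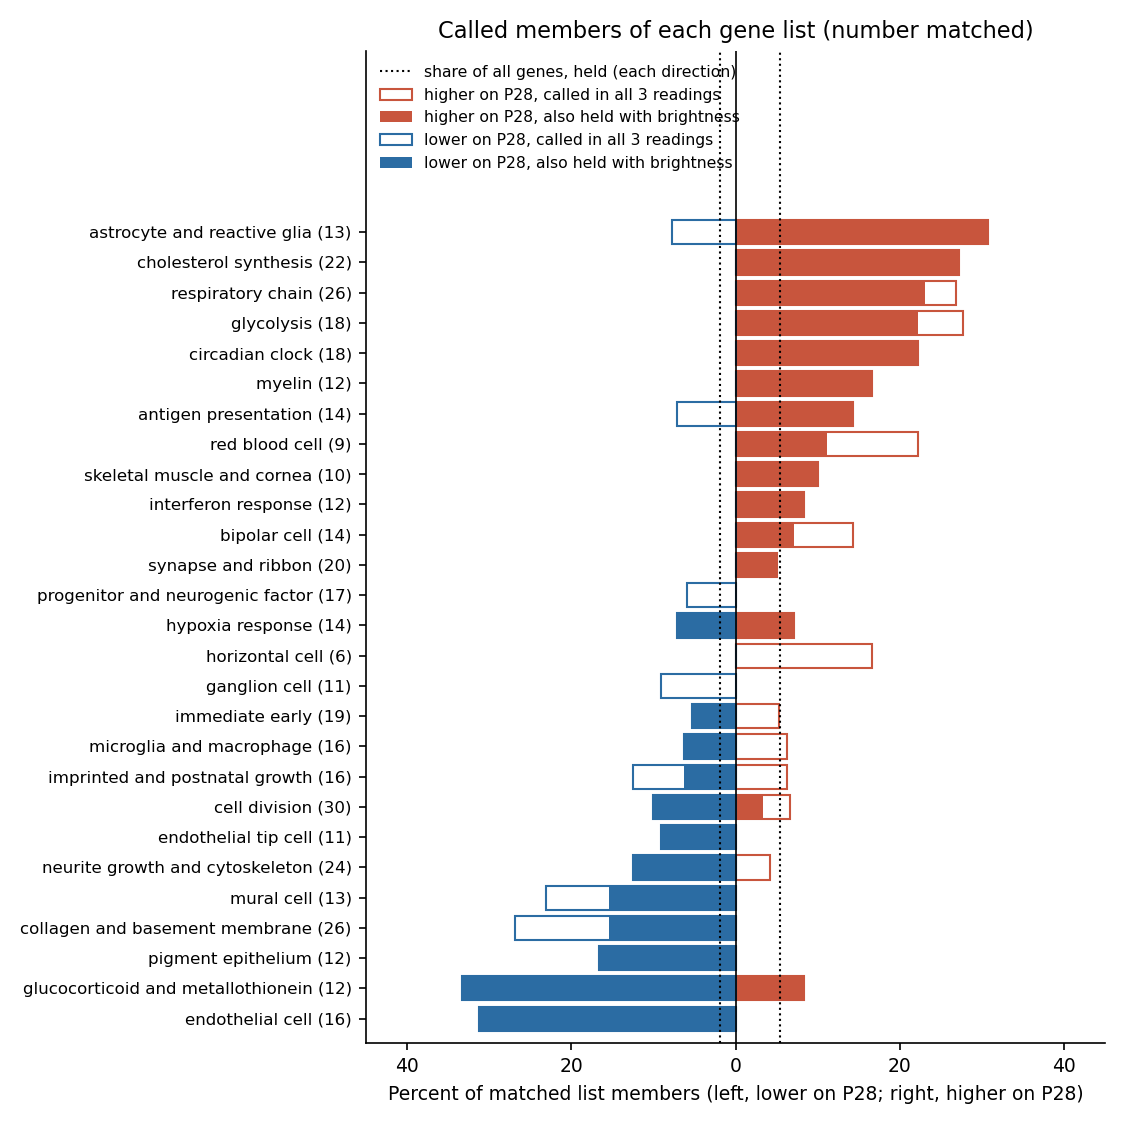
Share of the matched members of each gene list (x, percent; the number matched stands in parentheses) that were called higher (red, to the right) or lower (blue, to the left) on P28 in all 3 readings (outline) and that also held with brightness (filled), with dotted lines at the shares of all genes that held. Cholesterol synthesis, respiratory chain, glycolysis and circadian clock extend to the right only, and endothelial, mural and collagen genes to the left only; lists with no call are left out.

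None of 27 rod, 13 cone, 12 amacrine and 12 Mueller glia genes was called in all 3 readings. At an unadjusted p below 0.05 of the offset ratio in limma, 7 rod genes were higher and 6 lower, and the retina channel alone called 10 higher and none lower. For cones these counts were 2 and 1, and 5 and 1. For amacrine cells they were 5 and 1, and 4 and 0, and for Mueller glia 2 and 1, and 3 and 1. Over all 21154 genes they were 3893 and 3053, and 3267 and 1263. *Gnat1*, rod transducin, ranged from 5.43 to 8.10 on P17 (median 7.35) and from 5.04 to 8.11 on P28 (median 5.51), with a difference of −0.78 ± 0.41 (adjusted p = 0.247). *Sag*, arrestin, differed by −0.42 ± 0.24 (adjusted p = 0.275). Both were far above the reference on every array, but their groups overlapped and the readings parted. For *Gnat1*, the retina channel alone gave 0.66 and the deposited ratio gave −0.97.

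*Pde6b*, a catalytic subunit of the rod phosphodiesterase, ranged from 2.03 to 3.79 on P17 (median 2.96) and from 3.56 to 4.35 on P28 (median 4.06). Its offset ratio rose by 1.09 ± 0.13 (adjusted p = 7.6e-06), and by 1.01 on the third scan day. The deposited ratio went the other way, by −1.0, so *Pde6b* was not counted as called. *Opn1sw*, the short-wave cone opsin, was higher by 0.30 ± 0.07 in the offset ratio (adjusted p = 0.00322) but not in all readings, and its sign turned to −0.05 when arrays were centred on the probes above background. *Opn1mw*, the medium-wave opsin, differed by −0.18 ± 0.15 (adjusted p = 0.5).

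*Glul*, the glutamine synthetase of Mueller glia, differed by −0.09 ± 0.16 (adjusted p = 0.804), and *Grm6*, the glutamate receptor of ON bipolar cells, by −0.0042 ± 0.23 (adjusted p = 0.994). With the slide as a block *Grm6* was called lower (−0.41, adjusted p = 0.0201), and it was lower on 5 of 6 slides. Of 14 bipolar cell genes 2 were higher, of which *Scgn*, the calcium sensor secretagogin, held with brightness. It rose from a median of 0.20 (0.07 to 0.74) to 0.77 (0.48 to 1.10), by 0.50 ± 0.08 (adjusted p = 0.000129). Of 20 synapse and ribbon genes 1 was called, *Cplx4*, the complexin of photoreceptor ribbon synapses. Its levels were 0.47 to 1.90 on P17 (median 1.10) and 1.30 to 3.02 on P28 (median 2.58), and it rose by 1.07 ± 0.22 (adjusted p = 0.00151), with 0.40 on the third scan day. Single calls that did not hold with brightness were *Onecut1* among 6 horizontal cell genes (0.08), *Sncg* among 11 ganglion cell genes (−0.64) and *Sfrp2* among 17 progenitor genes (−0.58). Beside these lists, 7.64% of all genes were called higher and 2.74% lower.

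None of 22 neurotransmitter receptor and chloride transporter genes was called in all 3 readings (4 higher and 2 lower at an unadjusted p below 0.05 in limma, and 4 higher and 3 lower called in the retina channel alone). *Slc12a5*, the chloride extruder KCC2, had a median of 5.55 on P17 (4.36 to 6.10) and 5.77 on P28 (5.51 to 6.15), with a difference of 0.32 ± 0.13 (adjusted p = 0.124). *Slc12a2*, the importer NKCC1, differed by −0.23 ± 0.10 (adjusted p = 0.127), and by −0.32 with the brightness set as a block, where it was called (adjusted p = 0.0279). The juvenile NMDA receptor subunit *Grin2b* differed by −0.16 ± 0.06 (adjusted p = 0.0886), but it was lower on 6 of 6 slides and was called with the brightness set as a block (−0.25, adjusted p = 0.000897) and with the slide as a block (−0.21, adjusted p = 0.0105). For the adult subunit *Grin2a* the difference was 0.04 ± 0.06 (adjusted p = 0.743).

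Of 13 astrocyte and reactive glia genes 4 were higher and held with brightness, while 1, *Stat3*, was lower and did not hold. Over all genes 7.64% were higher, 5.45% were higher and held, and 2.74% were lower. The list median was 0.04. *Cebpd*, an acute-phase transcription factor, ranged from −3.25 to −1.33 on P17 (median −2.46) and from −2.31 to −1.22 on P28 (median −1.72). It rose by 0.72 ± 0.15 (adjusted p = 0.00189), and by 0.51 on the third scan day without overlap. *C4b*, a complement component, rose by 0.47 ± 0.07 (adjusted p = 7.33e-05). *Edn2*, the endothelin that stressed photoreceptors release, was well above background in 3 of 12 mice on P17 and in 14 of 14 on P28, and rose by 0.53 ± 0.11 (adjusted p = 0.00207). *Gfap*, the intermediate filament of astrocytes, rose by 0.27 ± 0.06 (adjusted p = 0.00245), but it was above background in 2 P17 and 9 P28 mice, and its sign turned to −0.16 when arrays were centred on the probes above background. On the third scan day *Gfap* rose by 0.08.

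Among immune genes, *H2-D1*, a classical class I histocompatibility gene, rose by 0.46 ± 0.14 with an adjusted p of 0.0307, which became 0.0559 without the 2 arrays of highest lens signal. *H2-Ab1*, of class II, was higher by 0.22 ± 0.04 (adjusted p = 0.000144), but by 0.09 on the third scan day, and turned to −0.13 when centred on the probes above background. These were the 2 rises among 14 antigen presentation genes, whose list median was −0.01, and *Cd74*, the invariant chain of class II, at −0.88, did not hold. The retina channel alone called 9 of the 14 higher and 1 lower, with a list median of 0.285. Of all 21154 genes it called 3267 higher and 1263 lower, with a median of 0.0053. In all 3 readings 7.64% of all genes were higher and 2.74% lower, and 5.45% and 1.91% also held. *Ifit3*, an interferon-induced gene, rose by 0.49 ± 0.07 (adjusted p = 5.8e-05) and was the only 1 of 12 interferon genes called in all 3 readings. The retina channel alone called 7 of the 12 higher and none lower, with a list median of 0.235 beside −0.08 in the offset ratio. Of 16 microglia genes only *Cd68*, a lysosomal glycoprotein of phagocytes, held with brightness, at −0.70 over all arrays and −0.06 on the third scan day, where the groups overlapped.

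The mean level of 30 cell division genes lay below the reference in every mouse, from −2.98 to −1.28 on P17 and from −3.16 to −2.08 on P28. Of these genes 3 fell and 2 rose in all 3 readings, the 3 falls and 1 rise held with brightness, and the list median was −0.59 over all arrays but −0.06 on the third scan day. Beside this and the next lists, 7.64% of all genes rose and 2.74% fell, and 5.45% and 1.91% also held. *Cenpe*, a kinetochore motor, ranged from −2.87 to −1.79 on P17 (median −2.45) and from −3.72 to −2.64 on P28 (median −3.16), a fall of 0.70 ± 0.12 (adjusted p = 0.000329) that was 0.24 on the third scan day. *Plk1*, a mitotic kinase, fell by 0.53 and *Rrm2*, a ribonucleotide reductase subunit, by 1.37, with 0.18 and 0.17 on the third scan day. *Spc25*, a kinetochore subunit, rose instead, by 0.73 ± 0.14 (adjusted p = 0.00105), from a median of 1.49 (1.22 to 2.18) to 2.47 (1.55 to 2.94). On the third scan day it rose by 0.29. *Pcna*, the sliding clamp of DNA replication, was the other rise, at 0.34, and did not hold. Of 16 imprinted and postnatal growth genes 2 fell and 1 rose in all 3 readings. *Plagl1*, a zinc finger factor, at 0.46, and *Grb10*, an adaptor that restrains growth signals, at −0.20, did not hold. The fall that held was that of *Hmga2*, a chromatin protein of immature cells, at −1.005 over all arrays and −0.15 on the third scan day. *Jun* was the only 1 of 19 immediate early genes that held, with a fall of 0.58 ± 0.09 (adjusted p = 0.000166), and of 0.47 on the third scan day.

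In the hypoxia response list, *Bnip3*, a mitophagy receptor, rose from a median of −1.05 (−1.31 to −0.61) to −0.50 (−0.73 to −0.21), by 0.58 ± 0.07 (adjusted p = 4.31e-06). All 3 of its probes were called higher. *Ankrd37*, another target of hypoxia-inducible factor, fell by 0.21 ± 0.04 (adjusted p = 0.00112), and by 0.35 on the third scan day. No other of the 14 members was called, and the list median was −0.19. Over all genes 7.64% were called higher and 2.74% lower.

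Among the remaining genes of the 12 largest rises, the long non-coding RNA *Norad* rose by 1.24 ± 0.16 (adjusted p = 1.22e-05), with 0.66 on the third scan day. Of its 4 probes 2 were called in all 3 readings. *Faim*, an inhibitor of apoptosis, rose from a median of 1.10 (0.46 to 1.98) to 2.68 (1.55 to 2.90), by 1.16 ± 0.19. *Apbb1*, an adaptor of the amyloid precursor protein, *Atp6ap1*, an accessory subunit of the vacuolar proton pump, *Plekhb2*, a protein of recycling endosomes, and *Dstn*, an actin-severing protein, rose by 1.13, 1.10, 1.05 and 1.07. *Gm13315*, a predicted gene, rose by 1.10. On the third scan day the changes of these 5 lay between 0.51 and 0.77, and no mice overlapped there. *Cds1*, which makes CDP-diacylglycerol, was higher by 1.22 but was not called in all 3 readings with the brightness set as a block.

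Among the 12 largest falls, *Ulk3*, a kinase of the autophagy family, fell by 2.92 ± 0.90 (adjusted p = 0.0325) over all arrays but by 1.01 with the brightness set as a block and by 0.64 on the third scan day. Its levels were −2.32 to 3.55 on P17 (median 2.37) and −3.64 to 2.07 on P28 (median −3.03), and they were also −3.68 to 3.83 on P12. *Zfp457*, a zinc finger gene, fell likewise by 1.98, 0.79 and 0.37. In both genes the second probe was not called. *Arpc1b*, of the actin-branching Arp2/3 complex, *Capg*, an actin-capping protein, and *Jchain*, the joining chain of antibodies, fell by 1.25, 1.17 and 1.18, but by 0.35, 0.21 and 0.50 on the third scan day. *Rnu3b1*, a small nucleolar RNA, fell by 1.16 and by 0.72. Besides *Col1a1*, the falls of *Rnu1b6*, *Rhobtb1* and *Skint7* did not hold with brightness.

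**Figure D4:**
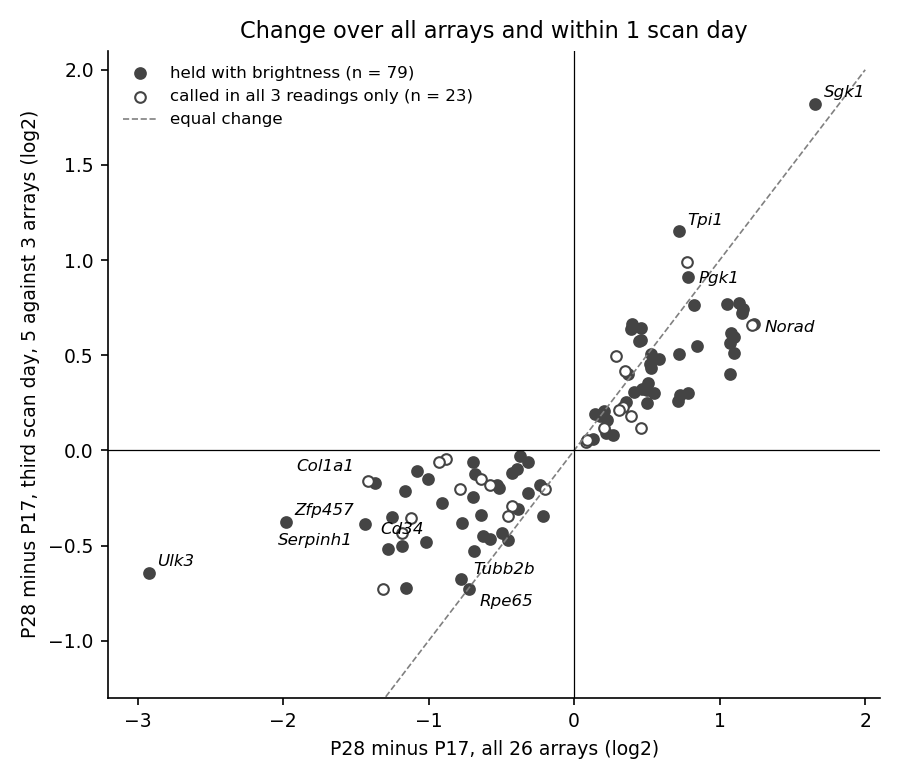
P28 minus P17 difference of the offset ratio (log2) over all 26 arrays (x) against that of the 5 P28 and 3 P17 arrays of the third scan day (y), for list members and largest changes called in all 3 readings, filled where they held with brightness, with the line of equal change. Sgk1 and Tubb2b lie near the line, whereas Ulk3 (−2.92 against −0.64) and Serpinh1 (−1.43 against −0.38) lie far from it.

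Tissues around the retina were checked with their own lists. Of 20 lens and crystallin genes none was called in all 3 readings (3 higher and none lower at an unadjusted p below 0.05 in limma), but the list median was 0.59. The mean level of the list ran from 0.02 to 1.20 on P17 (median 0.09) and from 0.03 to 3.59 on P28 (median 0.58). The 2 P28 arrays above every P17 array had 3.59 and 3.42, and the first of them was in the bright set. The second was among the 5 P28 arrays of the third scan day, where the list median was 0.93. No setting left it out on that day alone. Without these 2 arrays, a setting chosen after seeing the data, limma called 6351 probes with the offset ratio and 3558 in all 3 readings. *Cryaa*, alpha-crystallin, ranged from −0.07 to 3.56 on P17 and from −0.11 to 5.72 on P28, with a difference of 1.26 ± 0.52 (adjusted p = 0.117).

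Of 12 pigment epithelium genes 2 fell and held with brightness, where 1.91% of all genes fell and held and 5.45% rose and held. *Rpe65*, the retinoid isomerase of these cells, went from a median of 1.27 (0.55 to 2.24) to 0.47 (0.13 to 1.65), a fall of 0.72 ± 0.21 (adjusted p = 0.0217), with 0.73 on the third scan day and no overlap there. *Enpp2*, autotaxin, fell by 0.50 ± 0.14 (adjusted p = 0.0179). The mean level of the list ran from 0.31 to 1.38 on P17 and from 0.11 to 1.29 on P28. The median change of the list was −0.24 over all arrays, −0.37 on the third scan day and −0.865 in the deposited ratio. The retina channel alone called 7 of the 12 lower and none higher, with a list median of −0.617. Of 12 myelin genes 2 were higher and held, *Mbp* by 0.55 ± 0.11 (adjusted p = 0.00154) and *Cnp* by 0.36 ± 0.07 (adjusted p = 0.000501), and the list median was 0.0048. On the third scan day *Mbp* rose by 0.30 and *Cnp* by 0.25. *Hbb-b1*, a beta-globin, was higher by 0.23, which turned to −0.24 when centred on the probes above background. Of 10 muscle and cornea genes 1 was called, *Krt12*, a corneal keratin that was not well above background on any P17 array and on 9 P28 arrays was. *Krt12* rose by 0.13, and by 0.06 on the third scan day, and its sign turned when centred on the probes above background. Its second probe differed by 0.04 and was not called. The part of these tissues in the results was not tested. None of 10 housekeeping genes was called in all 3 readings (none higher and 3 lower at an unadjusted p below 0.05 in limma, and 1 higher called in the retina channel alone).

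The same interval was set beside that of the OIR mice (13 on P17, 13 on P28), for the named genes, by the difference between both changes in one limma model of the 4 groups. The adjusted p of this difference was below 0.05 for 11 of them, and for 147 of all 55681 probes. *Pfkp* and *Bnip3* rose in normoxia, by 0.78 and 0.58, and changed by −0.35 and −0.24 in OIR mice. *Cebpd* and *H2-Ab1* were likewise higher in normoxia, by 0.72 and 0.22, with −0.68 and −0.43 in OIR mice. The vascular genes *Cd34*, *Cd93* and *Pdgfb* changed by −1.02, −0.77 and −0.52 in normoxia and by −2.09, −1.94 and −1.25 in OIR mice. *Spc25* changed by 0.73 and 2.13. Of the OIR arrays 11 of P28 but 2 of P17 were bright, and with the brightness set as a block the differences kept their sign for all 11 genes.

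**Figure D5:**
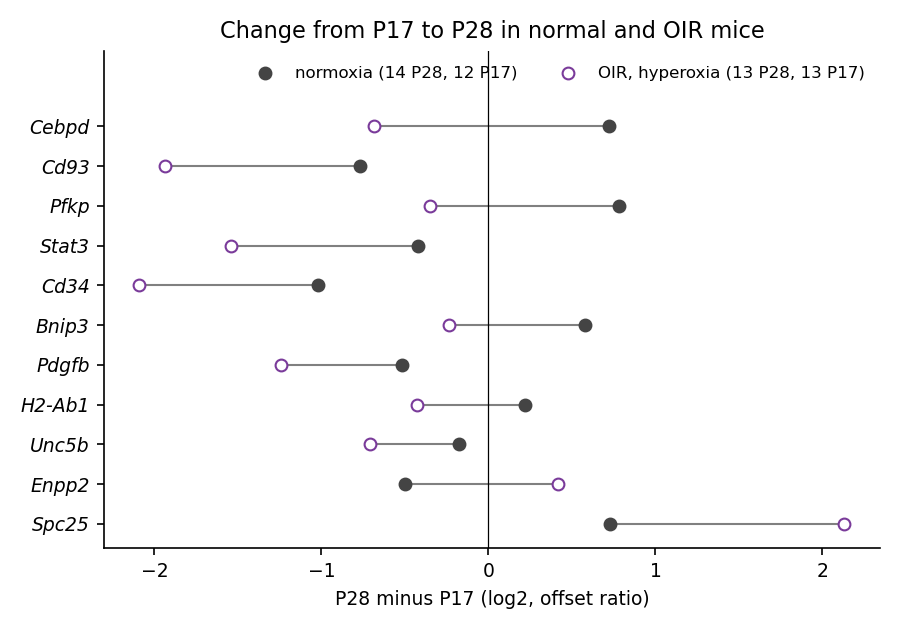
P28 minus P17 difference of the offset ratio (x, log2) in normoxia (filled, 14 and 12 mice) and in OIR mice (open, 13 and 13 mice) for the 11 named genes whose change differed between them. Cebpd, Pfkp, Bnip3 and H2-Ab1 lie above 0 in normoxia and below 0 in OIR mice, and Enpp2 the other way round.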

How the data were processed

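Microarray intensities, as deposited by the authors, were median spot and background signals of 2-color arrays read with Agilent Feature Extraction 10.7.3.1 (per the file headers). The authors also deposited a table of log2 ratios, at least 99.7% of which equalled the log2 of processed Cy3 over Cy5 within 0.001. Flags for outlier, saturated and dim spots were deposited as well, and array design names were kept or matched by accession.

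For the offset ratio, median signals were corrected with normexp (offset 50) and loess in limma 3.58.1 (R 4.3.3), outlier spots were dropped, and spots of a probe were averaged. The retina channel alone was quantile normalized. Ages were compared over 55681 probes, with Benjamini-Hochberg adjustment. The number of arrays limits the precision, and the litter of each mouse is not given in the labels, so p-values measure the spread between these mice. The paper lists fewer normoxia litters than pups at both ages. Some mice may therefore have shared a litter, which the p-values do not take into account. Arrays correlated with each other at 0.719 to 0.988.

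Named were the 12 largest rises and falls called in all 3 readings, up to 4 calls of each list and direction (the 2 brightest members where fewer than 2 were called) and tissue check genes. The members and lists were chosen with earlier results of these data known. Alternatives covered background, normalization, dim probes, slide, brightness, samples, weights and adjustment. Promoters were those of RefSeq. A few genes that the rule would name are not reported here.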

Additional observations from a re-analysis of the deposited data

Results flagged for a closer look

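The change from P17 to P28 differed between normoxia and OIR mice for 11 named genes, by the difference of both changes in limma (normoxia minus OIR, offset ratio). The difference was 0.82 for *Bnip3* (adjusted p = 9.62e-05), 1.07 for *Cd34* (0.000385), 1.17 for *Cd93* (2.72e-05), 1.41 for *Cebpd* (0.0351) and 0.65 for *H2-Ab1* (0.000385). It was 0.73 for *Pdgfb* (adjusted p = 0.016), 1.13 for *Pfkp* (2.65e-06), 1.12 for *Stat3* (0.000305) and 0.53 for *Unc5b* (0.00688). It was negative for *Enpp2*, at −0.91 (adjusted p = 0.00161), and for *Spc25*, at −1.40 (5.28e-05). With the brightness set as a block the differences ran from 0.51 for *Unc5b* to 1.43 for *Cebpd* and from −1.20 for *Spc25* to −0.80 for *Enpp2*. Over all 55681 probes, 147 differed between both changes, and 240 with the block.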

How the results depend on the processing

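No analysis paired by mouse was possible because each mouse had a number of its own. Within the slides that carried both ages, 5627 probes were called with the offset ratio and 3775 in all 3 readings. Of 6678 probes called with the offset ratio and 3806 in all 3 readings, the counts became 17759 and 10219 with array weights, 511 and 2.2e+02 with Bonferroni adjustment, 1166 and 301 in dim arrays, 12594 and 7908 in bright arrays and 1849 and 466 on the third scan day. The slide as a random block gave 6052 in all 3 readings, and the deposited ratio alone called 10554. Median centring called 43666 with the ratio, centring over the probes above background 44949, and centring on the third scan day 235, with 118 in all 3 readings. The settings by brightness set, by scan day and with centring over the probes above background or on the third scan day, and that without the 2 arrays of the highest lens signal, were chosen after seeing the data. The share of higher calls, 60.3% and 72.8%, was 47.1% with an offset of 0, 49.2% and 56.1% with the number of probes above background as a covariate, 50.1% and 60.1% with the brightness set as a block, 60.1% (all 3 readings) with slide as a block, 62.5% with it as a random block, 49.5% and 96.9% with median centring, 7.57% and 61.2% with centring over the probes above background, and 11.5% and 7.63% with that of the third scan day. In bright arrays it was 41.4% and 50.5%, and in dim arrays 53.2% in all 3 readings. The cause was not tested.

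Of 69 named genes that held with brightness, 47 lost their call with Bonferroni adjustment, 46 in dim arrays and 40 on the third scan day. Among named genes called as reported or in the alternative, signs turned for *Pde6b* with an offset of 0 (−0.15) and in the deposited ratio (−1.0), for *Gnat1* (0.66) in the retina channel alone, and for *Grin2a* in bright arrays (−0.20). With median centring they turned for *Rnu1b6* (0.14), *Jchain* (0.16), *Capg* (0.16), *Skint7* (0.39), *Angptl4* (0.050), *Ankrd37* (0.94), *Anpep* (0.12), *Cd34* (0.19), *Cd68* (0.45), *Cd93* (0.032), *Cenpe* (0.41), *Col3a1* (0.037), *Dpysl3* (0.70), *Enpp2* (0.71), *Fkbp5* (0.57), *Jun* (0.75), *Marcksl1* (0.40), *Pdgfb* (0.30), *Pdgfrb* (0.42), *Plk1* (0.57), *Ramp2* (0.51), *Stat3* (0.81), *Tsc22d3* (0.82), *Tubb2b* (0.36), *Unc5b* (0.89), *Zbtb16* (0.31), *Sag* (0.83), *Gnat1* (0.58), *Opn1mw* (1.02), *Glul* (1.18), *Grm6* (1.17) and *Slc12a2* (0.89). With centring over the probes above background they turned for *Gfap* (−0.16), *H2-Ab1* (−0.13), *Hbb-b1* (−0.24), *Krt12* (−0.89), *Opn1sw* (−0.047) and *Grin2a* (−0.68), and with centring on the third scan day for *Sdha* (−0.029) and *Spc25* (−0.013). At most 6 named genes called in neither fit, such as *Sag*, *Glul*, *Grin2a* and *Unc5b*, also turned in a setting.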
